A study of Mus musculus with 20 samples.

Results

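The genes of iron handling and of its hormone hepcidin examined here in mouse liver were Hamp, Hamp2, Slc40a1, Cp, Trf, Tfr2, Hfe, Tfrc, Fth1 and Ftl1. They were taken by their symbols from the deposited gene tables, where all 10 symbols had a row among 34933 named genes, and all 10 passed the filter on low counts. The livers came from wild-type (WT) mice with diet-induced obesity (DIO), a trait the control mice carried too. The mice received Rosuvastatin together with GGOH (the combination), Rosuvastatin alone, GGOH alone or vehicle, with 5 mice in each of 4 groups. Rosuvastatin is a statin, which blocks the enzyme that makes mevalonate, and GGOH (geranylgeraniol) is an isoprenoid alcohol that cells can turn into the geranylgeranyl groups made downstream of mevalonate. The labels give no dose, duration, age, sex or batch, and they name the wild type without a strain.

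The liver senses and stores iron and sets how much of it enters the blood. Hepatocytes secrete hepcidin, a small peptide hormone encoded by Hamp, which binds the iron exporter ferroportin on gut cells and macrophages and causes its breakdown, so that less iron reaches the plasma. Hepcidin transcription is raised by bone morphogenetic proteins (BMPs) acting through SMAD proteins and by interleukin 6 acting through STAT3. Inside cells, iron regulatory proteins bind a hairpin, the iron-responsive element, in certain mRNAs when iron is scarce. Bound in a 5' untranslated region the hairpin holds back translation, and bound in a 3' untranslated region it protects the mRNA from decay.

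The hairpins are printed because they divide the genes by how iron can act on them, at the level of translation or of the transcript that was counted here. A search of the GENCODE M21 transcripts on GRCm38 looked, on the transcript strand only, for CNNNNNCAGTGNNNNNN. This is an unpaired C, 5 bases, a loop of CAGTG followed by A, C or T, and 5 bases pairing with the first 5. G with T was accepted as a pair. The search matched the 5' untranslated region of 21 genes of 20873 (0.101%) and the 3' untranslated region of 98 genes of 21669 (0.452%). Of the 10 genes, 4 had a match. Fth1, Ftl1 and Slc40a1 had 1 each in the 5' untranslated region, and Tfrc had 4 in the 3' untranslated region. A match describes letters in the annotation and is not a measurement of binding. The loop is in capitals.
Fth1 (chr19:9982733-9982759, plus strand): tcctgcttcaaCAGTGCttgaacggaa
Ftl1 (chr7:45459780-45459806, minus strand): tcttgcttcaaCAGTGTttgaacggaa
Slc40a1 (chr1:45925466-45925492, minus strand): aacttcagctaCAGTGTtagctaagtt
Tfrc (chr16:32631220-32631246, plus strand): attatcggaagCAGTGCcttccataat
Tfrc (chr16:32631599-32631625, plus strand): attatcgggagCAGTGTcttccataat
Tfrc (chr16:32631664-32631690, plus strand): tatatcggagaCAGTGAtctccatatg
Tfrc (chr16:32631711-32631737, plus strand): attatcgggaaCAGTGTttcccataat

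Mice carry a pair of neighbouring hepcidin genes on the minus strand of chromosome 7. In GENCODE M21 Hamp lies at 30942368 to 30944032 and Hamp2 at 30922372 to 30924681. Hamp encodes the hormone that acts on ferroportin, whereas in mouse studies Hamp2 did not have that action. Their promoters (RefSeq, GRCm38.p6) were identical at 92.9% of 297 aligned bases. The stretch from 130 to 71 bases before each RefSeq start site is printed. It holds the BMP response element of Hamp (GGCGCC) and a STAT site (TTCNNNGAA), both in capitals. For Hamp2 the stretch lies inside the span given above, because the GENCODE gene begins farther upstream than the RefSeq start site.
Hamp (chr7:30944100-30944159, minus strand): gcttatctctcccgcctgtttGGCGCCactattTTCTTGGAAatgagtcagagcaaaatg
Hamp2 (chr7:30924252-30924311, minus strand): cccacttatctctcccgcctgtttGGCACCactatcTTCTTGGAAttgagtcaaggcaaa
Within the BMP element the aligned genes differed by 1 substitution, G4A, with the Hamp base given before the Hamp2 base and positions counted from the first base of the element. The STAT site had none. Searched on both strands, GGCGCC occurred in 11.9% and TTCNNNGAA in 8.3% of 32851 promoters of the same length, so that neither is rare.

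The libraries held between 8548120 (combination mouse 3) and 18373913 counts (median 15697884). Combination mice 2 and 3 had the highest mitochondrial shares of counts, 27.9% and 29.2%, and no other library exceeded 17.1%. All 6 hepatocyte markers, Alb among them, passed the filter, with summed levels of 27200 to 76200 TPM over all mice. The 6 Kupffer cell markers summed to 57.2 to 255 TPM. In a whole liver, fewer cells of a type and less RNA per cell cannot be told apart. Nothing in the labels beyond their numbering says how the mice were kept, so the p-values measure the spread between these animals as sampled.

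The 10 genes covered a wide range of levels. In TPM, which corrects for transcript length and so allows genes to be compared, the median over the 20 livers was highest for Trf, the plasma iron carrier transferrin, at 4980. Ftl1 and Fth1, the light and heavy chains of the iron store ferritin, followed at 3300 and 2600 TPM. The medians were 397 TPM for Hamp, 189 for Cp, 81.9 for Hamp2, 44.0 for Slc40a1, 43.7 for Tfr2, 26.4 for Hfe and 4.12 for Tfrc. Most neighbours in that order had ranges that overlapped. The exceptions were Fth1, which lay above Hamp in all 20 livers without overlap of the ranges, and Hfe, which lay likewise above Tfrc. Slc40a1 exceeded Tfr2 in 10 of 20 livers, so these genes had no order. Tfr2, the iron sensing receptor of hepatocytes, was thus far above Tfrc, the transferrin receptor that most cells use to take up iron.

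Hepcidin stood apart from the other genes in how much it differed between mice given the same treatment. The within-group SD was 1.37 log2 units for Hamp and 1.42 for Hamp2, against a median of 0.392 over the 12789 genes tested. Of those genes, 99.0% spread less than Hamp and 99.1% less than Hamp2. Tfrc came next among the 10 genes, at 0.457, with 61.7% of genes spreading less. The other 7 genes lay between 0.190 for Tfr2 and 0.387 for Trf. Only 5.5% of genes had less spread than Tfr2, 18% less than Cp and 20% less than Fth1.

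**Figure D1:**
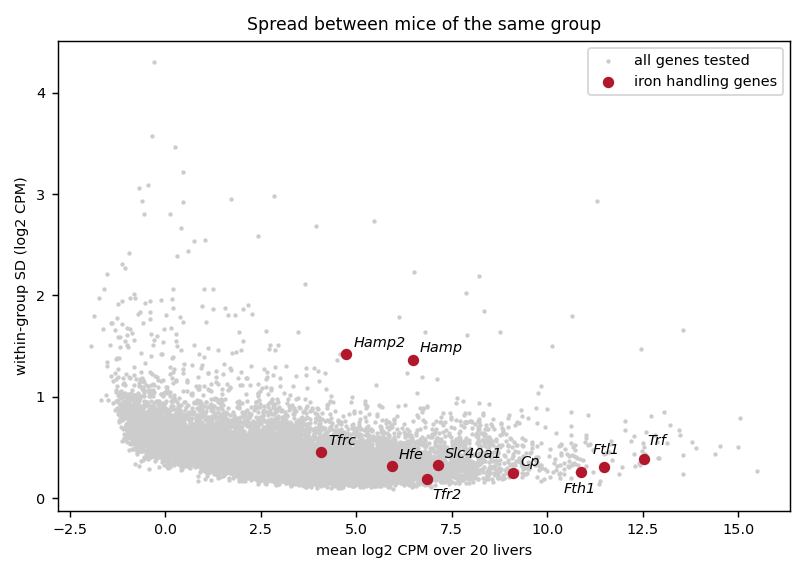
Within-group SD of log2 CPM (y axis) against mean log2 CPM over 20 livers (x axis) for each gene tested (grey) and for the 10 iron handling genes (red). Hamp at 1.37 and Hamp2 at 1.42 lie above nearly all genes of their level, while the other 8 lie within the grey cloud, at 0.457 or less.

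Values by mouse are given in CPM, library-normalised counts, computed from the deposited counts with TMM scaling. The mice of a group are given in the order of their numbers. For Hamp they were 55.1, 251, 97.0, 109.8 and 159 CPM in the combination mice and 134, 202, 51.1, 119 and 49.9 CPM in the Rosuvastatin mice. They were 304, 37.2, 17.4, 54.3 and 112 CPM in the GGOH mice and 12.2, 67.2, 219, 67.4 and 359 CPM in the vehicle mice. Both extremes of all 20 livers thus fell in the vehicle group, in mice 1 and 5, which differed 29.5-fold, and every pair of groups overlapped. Vehicle mouse 1 is also the library with the highest TMM factor (1.25), and in TPM, which has no such factor, the lowest Hamp was in GGOH mouse 3 (60.3) and the highest in GGOH mouse 1 (965), a 16-fold range.

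**Figure D2:**
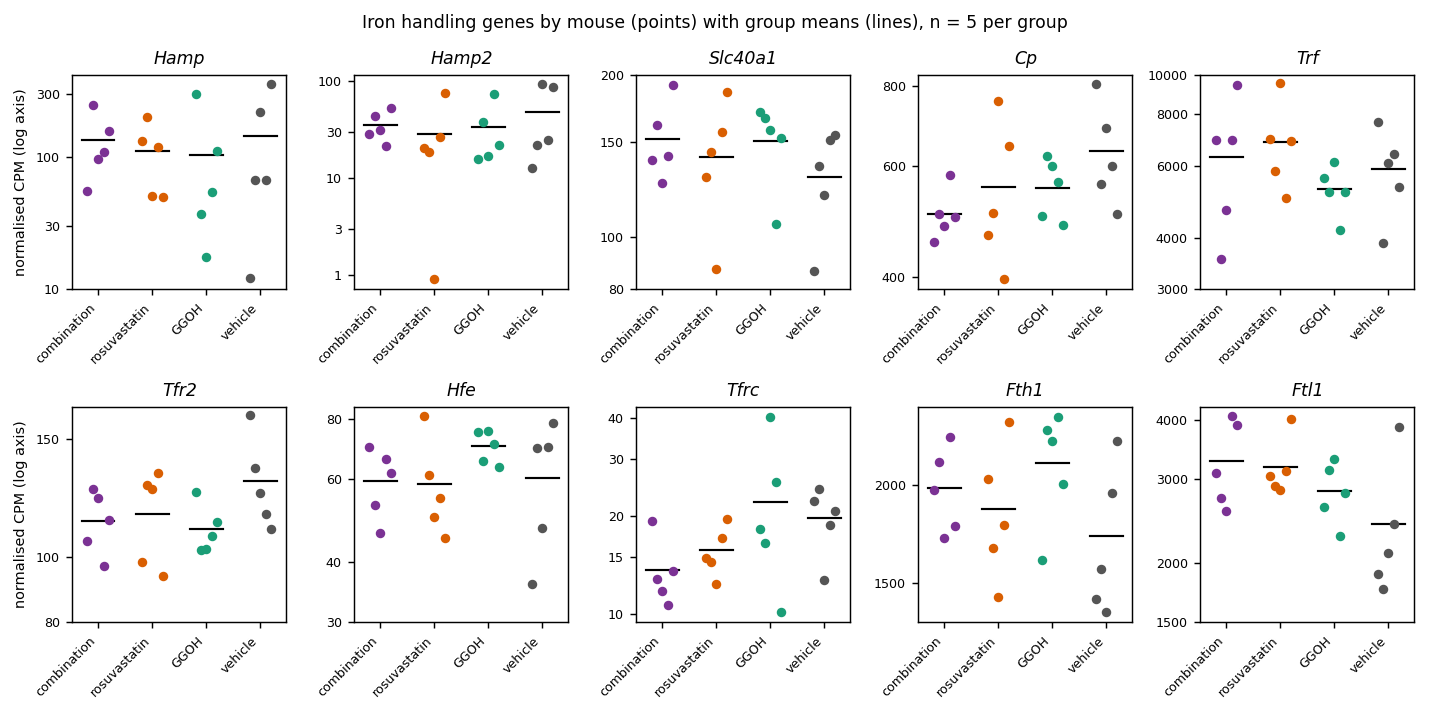
Normalised CPM (log axis) of the 10 iron handling genes in each liver. Points are mice, lines are group means and n = 5 per group. No gene separates any group from vehicle. Hamp runs between 12.2 and 359 CPM within the vehicle mice alone.

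No difference in Hamp between groups exceeded the spread. Its mean was 134 ± 74.9 CPM in combination mice, 111 ± 63.7 in Rosuvastatin mice, 105 ± 117 in GGOH mice and 145 ± 142 in vehicle mice (SD, n = 5 each). The fitted log2 fold change was -0.38 ± 0.72 (SE) for Rosuvastatin against vehicle, with a 95% interval of -1.88 to 1.11. It was -0.47 ± 0.72 for GGOH against vehicle (-1.96 to 1.03) and -0.11 ± 0.72 for the combination against vehicle (-1.60 to 1.38). Adding GGOH to Rosuvastatin gave 0.27 ± 0.72 (-1.22 to 1.77), and the combination against GGOH gave 0.36 ± 0.72 (-1.14 to 1.85), which ran from 0.01 (without combination mouse 2) to 1.28 (without GGOH mouse 1) with 1 mouse left out. The intervals thus leave room for a change of about 1 log2 unit in either direction in each of these comparisons. The fitted fold changes follow group means. On the log2 CPM scale, where vehicle mouse 1 weighs more, the difference for Rosuvastatin against vehicle was 0.18 and that for the combination against vehicle 0.49, of the other sign (exact permutation p = 0.857 and 0.635, two-sided, n = 5 each).

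Hamp2 showed the widest range of the 10 genes. The combination mice had 28.6, 43.9, 31.8, 21.6 and 52.8 CPM and the Rosuvastatin mice 20.3, 18.8, 0.907, 26.6 and 75.9 CPM. The GGOH mice had 15.8, 37.9, 16.8, 74.4 and 22 CPM and the vehicle mice 12.8, 22.2, 93.0, 24.9 and 86.3 CPM. Rosuvastatin mouse 3, with a count of 16, was the lowest and vehicle mouse 3 the highest, a 103-fold range, and all groups overlapped. The log2 fold change was -0.75 ± 0.68 for Rosuvastatin (95% interval -2.16 to 0.67), -0.52 ± 0.68 for GGOH and -0.42 ± 0.68 for the combination, each against vehicle. The combination differed by 0.33 ± 0.68 from Rosuvastatin and by 0.10 ± 0.67 from GGOH, and every 95% interval held 0. Leaving out 1 mouse moved the values against vehicle widely: from -1.49 (without Rosuvastatin mouse 5, unadjusted p = 0.0415) to -0.33 (without vehicle mouse 3) for Rosuvastatin, from -1.05 (without GGOH mouse 4) to -0.11 (without vehicle mouse 3) for GGOH, and from -0.64 (without vehicle mouse 1) to -0.02 (without vehicle mouse 3) for the combination.

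The balance of the hepcidin genes also varied by mouse. Hamp took 65.9 to 85.1% of the counts of both genes in combination mice, 39.7 to 98.3% in Rosuvastatin mice, 42.2 to 95.1% in GGOH mice and 48.7 to 80.6% in vehicle mice. Hamp held the larger part in 16 of 20 livers. Of the 380 stretches of 31 bases in the Hamp transcript, 128 also occur in Hamp2, and 66.3% occur in no other gene, so the estimator had sequence to separate them but had to divide the reads of the shared part. With both genes summed, which was added after seeing the data, the log2 fold changes against vehicle were -0.46 ± 0.60 for Rosuvastatin, -0.48 ± 0.60 for GGOH and -0.18 ± 0.60 for the combination.

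Tfrc gave the only fold change of the 10 genes with an unadjusted p under 0.05. The combination mice had 19.4, 12.8, 11.8, 10.7 and 13.5 CPM and the Rosuvastatin mice 14.9, 14.5, 12.4, 17.1 and 19.6 CPM. The GGOH mice had 18.3, 16.5, 40.2, 25.4 and 10.2 CPM and the vehicle mice 22.2, 24.3, 12.7, 18.8 and 20.7 CPM. All 4 groups overlapped: 4 of the 5 combination mice lay at 13.5 or less, but the lowest liver of all was GGOH mouse 5, and the highest was GGOH mouse 3. Tfrc averaged 13.6 ± 3.38 CPM in combination mice and 22.1 ± 11.5 CPM in GGOH mice (SD, n = 5 each). The log2 fold change was -0.70 ± 0.27 (95% interval -1.26 to -0.13), with an unadjusted p of 0.0177 and an adjusted p of 0.348 in edgeR's quasi-likelihood test, so that it did not pass. On the log2 CPM scale with all mice kept, the difference was -0.57 (exact permutation p = 0.159, two-sided, n = 5 each). Without GGOH mouse 3 the fitted log2 fold change was -0.37, with an unadjusted p of 0.138. Without vehicle mouse 1, which had the highest TMM factor, and combination mice 2 and 3, which had the highest mitochondrial shares, it was -0.61, with an unadjusted p of 0.0828.

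Against vehicle, Tfrc did not pass in any group. The combination gave a log2 fold change of -0.53 ± 0.27 (95% interval -1.09 to 0.03), Rosuvastatin -0.33 ± 0.27 and GGOH 0.17 ± 0.27. The unadjusted p-values were 0.0639, 0.239 and 0.544. For the combination against Rosuvastatin the log2 fold change was -0.20 ± 0.27. The combination, Rosuvastatin and GGOH comparisons with vehicle share the vehicle mice.

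Across the whole transcriptome these comparisons called nothing at an adjusted p under 0.05: 0% of 12789 genes in each of the 6 comparisons, and 0 of the 10 iron handling genes. At an unadjusted p under 0.05 the share of all genes was 3.69% for Rosuvastatin against vehicle, 2.86% for GGOH against vehicle, 1.69% for the combination against Rosuvastatin, 5.5% for the combination against vehicle, 14% for the combination against GGOH and 2.89% for the interaction. Of the 10 iron handling genes, 1 (Tfrc) met that unadjusted threshold in the combination against GGOH, close to the share of all genes, and 0 met it in the other 5 comparisons. When combination mice 2 and 3 and also vehicle mouse 1 were omitted, 427 genes met that threshold in the combination against GGOH, against 1788 with all mice, and 1893 did for Rosuvastatin against vehicle, against 472 with all mice. DESeq2 called 2, 0, 1, 5, 0 and 0 genes in the same order of comparisons, and none of them was an iron handling gene.

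**Figure D3:**
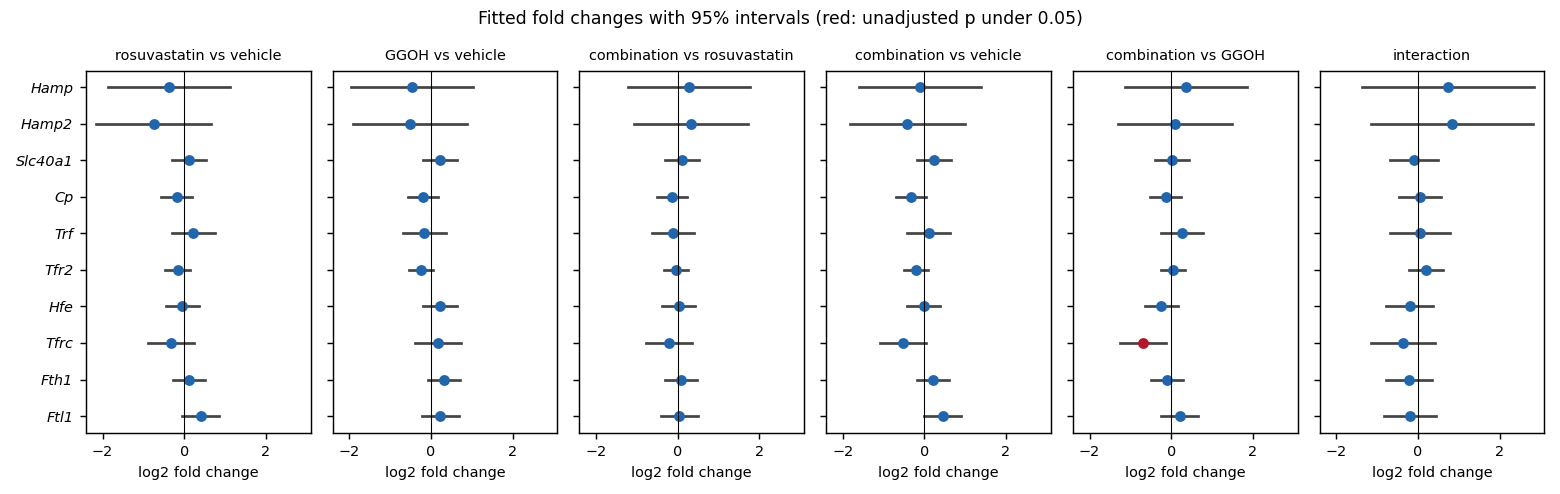
Fitted log2 fold changes of the 10 iron handling genes in 5 pairwise comparisons and the interaction (x axis, points) with 95% intervals (lines), first-named group over second. Red marks an unadjusted p under 0.05, which 1 gene reached, Tfrc in the combination against GGOH at -0.70. The intervals of Hamp and Hamp2 are the widest in every panel.

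The ferritin chains varied less between mice, and no group difference passed. Ftl1 was at 3092, 2734, 2563, 4074 and 3904 CPM in combination mice and 3042, 2899, 2840, 3119 and 4010 CPM in Rosuvastatin mice. It was at 2619, 3132, 3300, 2273 and 2808 CPM in GGOH mice and 1888, 1760, 2099, 2415 and 3869 CPM in vehicle mice. All combination and Rosuvastatin mice lay above 4 of the 5 vehicle mice, and vehicle mouse 5 lay among them, so the groups overlapped. The log2 fold change against vehicle was 0.44 ± 0.22 for the combination (95% interval -0.0099 to 0.90, unadjusted p = 0.0547) and 0.40 ± 0.22 for Rosuvastatin (-0.051 to 0.86, unadjusted p = 0.0787). Both had adjusted p-values in edgeR of 0.817 or more. Without vehicle mouse 5 the values were 0.69 and 0.66 with unadjusted p-values of 0.00262 and 0.00362. At the other end, the combination was at 0.36 without combination mouse 4 (unadjusted p = 0.138). Rosuvastatin was at 0.34 without vehicle mouse 2 (unadjusted p = 0.15). Adjusted p-values in edgeR stayed at 0.354 or more over all single mice left out. When vehicle mouse 1 and combination mice 2 and 3 were omitted, the combination was at 0.556 and Rosuvastatin at 0.344. Their p-values in edgeR were 0.035 and 0.13 unadjusted, and 0.745 and 0.434 adjusted. With mouse number added to the model as a block, the values were 0.475 and 0.437. Their p-values in edgeR were then 0.034 and 0.049 unadjusted, and 0.858 and 0.986 adjusted. GGOH against vehicle gave 0.23 ± 0.22.

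Ftl1 is also the gene whose counts are the least certain. Only 5.12% of the 31-base stretches of its transcript occur in no other gene, and 756 of 938 are shared with the copy Ftl1-ps1, which was assigned 1.85 to 5.4% of the counts of both. Fth1, with 87.1% of such stretches its own, had a log2 fold change against vehicle of 0.20 ± 0.19 for the combination, 0.12 ± 0.19 for Rosuvastatin and 0.31 ± 0.19 for GGOH, each with 0 inside its 95% interval. Its mean was 1980 ± 248 CPM in combination mice, 1870 ± 373 in Rosuvastatin mice, 2140 ± 339 in GGOH mice and 1720 ± 385 in vehicle mice (SD, n = 5 each). The ratio of Ftl1 to Fth1 in TPM was 1.46 ± 0.304 in combination mice, 1.51 ± 0.153 in Rosuvastatin mice, 1.18 ± 0.227 in GGOH mice and 1.21 ± 0.202 in vehicle mice (SD, n = 5 each). These ranges overlapped as well, with 1.31 to 1.73 in Rosuvastatin mice and 0.99 to 1.49 in vehicle mice.

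Slc40a1 encodes ferroportin, the exporter that hepcidin removes at the protein level, and Cp encodes ceruloplasmin, the plasma copper protein that oxidises exported iron for loading onto transferrin. Slc40a1 averaged 152 ± 25.7 CPM in combination mice, 140 ± 36.4 in Rosuvastatin mice, 150 ± 25.9 in GGOH mice and 129 ± 27.8 in vehicle mice (SD, n = 5 each). Its log2 fold changes against vehicle were 0.23 ± 0.20 for the combination, 0.12 ± 0.20 for Rosuvastatin and 0.22 ± 0.20 for GGOH. Cp had 455, 503, 481, 580.2 and 498 CPM in combination mice and 806, 562, 689, 599.9 and 504 CPM in vehicle mice. Of the 5 combination mice, 4 lay below every vehicle mouse and the fifth overlapped. The log2 fold change of Cp was -0.33 ± 0.18 (95% interval -0.70 to 0.04, unadjusted p = 0.0800, adjusted p = 0.817 in edgeR). An exact permutation test of the log2 CPM of Cp alone gave p = 0.0397 (two-sided, n = 5 each, smallest possible 0.00794), unadjusted for the 50 such tests run on the 10 genes. The fold change of Cp was -0.21 (unadjusted p = 0.261) without vehicle mouse 1, and -0.19 (unadjusted p = 0.368) when combination mice 2 and 3 were omitted as well.

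Transferrin, its hepatocyte receptor and Hfe gave no difference past the threshold either. Tfr2 averaged 113 ± 12 CPM in combination mice, 116 ± 18.5 in Rosuvastatin mice, 110 ± 9.42 in GGOH mice and 130 ± 20.9 in vehicle mice (SD, n = 5 each). Its log2 fold changes against vehicle were -0.20 ± 0.14, -0.16 ± 0.14 and -0.24 ± 0.14 in that order of treatments, each with 0 inside the 95% interval. Without vehicle mouse 1, the highest of its group, they were -0.09, -0.04 and -0.13. Hfe, whose protein binds the transferrin receptors and takes part in hepcidin control, averaged 59.3 ± 9.73 CPM in combination mice, 58.4 ± 14.2 in Rosuvastatin mice, 70.2 ± 5.61 in GGOH mice and 60.2 ± 17.8 in vehicle mice. Its largest log2 fold change in size was -0.24 ± 0.20, for the combination against GGOH. Trf averaged 6300 ± 2280 CPM in combination mice, 6830 ± 1710 in Rosuvastatin mice, 5250 ± 710 in GGOH mice and 5880 ± 1400 in vehicle mice, with no log2 fold change against vehicle above 0.22 ± 0.25.

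The combination was set against Rosuvastatin alone to see what GGOH added to the statin. All 10 log2 fold changes of the combination against Rosuvastatin were smaller than their SE, the smallest unadjusted p being 0.444. The interaction, which asks whether the effect of Rosuvastatin differed with GGOH, was 0.74 ± 1.02 for Hamp, 0.84 ± 0.96 for Hamp2 and -0.37 ± 0.38 for Tfrc, and the smallest unadjusted p of the 10 genes was 0.324. For Hamp its 95% interval ran from -1.37 to 2.85, so that interactions of 1 log2 unit either way lay inside it. With 1 mouse left out, the interaction ran from 0.07 (without vehicle mouse 5) to 1.66 (without GGOH mouse 1) for Hamp, from 0.42 (without vehicle mouse 3) to 1.58 (without Rosuvastatin mouse 5) for Hamp2, and from -0.55 (without GGOH mouse 5) to -0.04 (without GGOH mouse 3) for Tfrc.

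Among the regulators of hepcidin, no list held a gene past the adjusted threshold. Of the 24 symbols listed for BMP and SMAD control, 22 were tested; Hfe2 is an older name of Hjv, and Erfe had no counts. For GGOH against vehicle 8 of the 22 were higher and 14 lower, with a median log2 fold change of -0.09 against -0.02 over all genes. The 3 at an unadjusted p under 0.05 were all higher with GGOH: Id1 (0.60 ± 0.21), Id2 (0.45 ± 0.19) and Id3 (0.44 ± 0.21), targets of BMP signalling, with adjusted p-values of 1.00 in edgeR, where 2.86% of all genes met that unadjusted threshold. Other targets of the pathway on the list had values below 0 and did not pass: Atoh8 at -0.16 ± 0.27, Smad6 at -0.11 ± 0.34 and Smad7 at -0.07 ± 0.25. Without GGOH mouse 1 Id2 was at 0.29 (unadjusted p = 0.14), and without vehicle mouse 1 Id3 was at 0.29 (unadjusted p = 0.121). Hamp, which the same pathway drives, was at -0.47 ± 0.72 there. For the combination against GGOH Id1 was at -0.52 ± 0.21, and at -0.37 without GGOH mouse 1 (unadjusted p = 0.0867). For the combination against vehicle 14 were higher and 8 lower, among them Smad9 (1.31 ± 0.51), Fgl1 (-1.18 ± 0.53) and Bmp2 (-0.44 ± 0.20), the last of which is made by liver endothelial cells. Without vehicle mouse 2 Fgl1 was at -0.63 (unadjusted p = 0.228) and Bmp2 at -0.31 (unadjusted p = 0.146). Without combination mouse 3 Smad9 was at 1.03 (unadjusted p = 0.0602).

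Of the 13 genes listed for inflammatory control of hepcidin, 12 were tested and 0 passed the adjusted threshold. Saa1 and Saa2, acute phase proteins that respond to interleukin 6, had log2 fold changes of -4.37 ± 1.02 and -4.53 ± 1.08 for the combination against vehicle, with adjusted p-values of 0.817 in edgeR. Without vehicle mouse 2 they were -2.64 and -2.56. Against the same vehicle mice, Saa1 and Saa2 were at -3.61 and -4.13 for GGOH and at -2.64 and -2.3 for Rosuvastatin. With vehicle mouse 2 left out, these were -1.91 and -2.19 for GGOH and -0.89 and -0.32 for Rosuvastatin. Saa1 was at 52.5 to 196 CPM in combination mice and 93.1 to 9220 CPM in vehicle mice, the highest being vehicle mouse 2. Hamp in vehicle mouse 2 was 67.2 CPM, below the middle of all livers, and over the 20 livers Hamp and Saa1 had a Pearson r of -0.15. DESeq2 called both Saa genes for the combination against vehicle, with an adjusted p of 0.0112 each. Socs3, a STAT3 target, was at -0.69 ± 0.25 for the combination against GGOH, and at -0.52 without GGOH mouse 1 (unadjusted p = 0.0523). The medians of the list were -0.12 for the combination against vehicle and 0.03 for the combination against GGOH, beside 0.006 and 0.009 over all genes.

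Lists further along iron use gave the same picture of no calls. For the combination against GGOH 50.9% of all genes were higher. There the list of heme synthesis, export and breakdown (16 of 16 tested) had 4 genes higher and 12 lower (median log2 fold change -0.25). Within it, Hmox1, the inducible heme oxygenase that frees iron from heme, was at 0.82 ± 0.31 for GGOH against vehicle and 0.40 without GGOH mouse 2. Cpox, an enzyme of heme synthesis, was at -0.36 ± 0.13 for Rosuvastatin and for the combination, each against vehicle. Without vehicle mouse 2 Cpox was at -0.28 and -0.29 (unadjusted p = 0.0585 and 0.0471). Of the 13 iron-sulfur cluster genes, 10 were lower for the combination against GGOH (median -0.15), 10 for Rosuvastatin against vehicle (-0.16) and 9 for the combination against vehicle (-0.19), whereas 11 were higher for GGOH against vehicle (0.09). Of all genes, 50.9, 47.3, 50.8 and 46.9% were higher in that order. An unadjusted p under 0.05 was met by 2, 0, 1 and 0 of the 13, beside 14, 3.69, 5.5 and 2.86% of all genes. These comparisons share groups. Of the 3 iron regulatory genes, Fbxl5, an iron sensor that marks an iron regulatory protein for breakdown, was at -0.47 ± 0.18 for the combination against GGOH. Without combination mouse 3 Fbxl5 was at -0.41 (unadjusted p = 0.0529). The 14 tested genes of iron uptake and trafficking (of 17) had medians between -0.10 and 0.08 in the 6 comparisons. Of the 7 scavenging genes 6 were tested, and Lcn2, which binds bacterial siderophores, was at -2.34 ± 0.84 for the combination against Rosuvastatin and -1.89 ± 0.83 for the combination against vehicle. Without Rosuvastatin mouse 3 the first was -0.33 (unadjusted p = 0.595), and without vehicle mouse 2 the second was -1.02 (unadjusted p = 0.218).

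Single genes of these lists at an unadjusted p under 0.05 went in both directions. Of all genes, 14% met that threshold for the combination against GGOH, 5.5% for the combination against vehicle and 2.89% for the interaction. For the combination against GGOH, Ppox, an enzyme of heme synthesis, was at 0.49 ± 0.17, Mcoln1, a lysosomal cation channel, at 0.73 ± 0.24, and Slc25a37, the iron importer of mitochondria, at 0.78 ± 0.34. In the same comparison Lrp1, a receptor for heme bound to hemopexin, was at 0.80 ± 0.36 and Ciao1, of cytosolic iron-sulfur assembly, at -0.39 ± 0.17. Without combination mouse 3, Slc25a37 was at 0.54 and Ciao1 at -0.29 (unadjusted p = 0.128 and 0.11 in edgeR). Ppox and Mcoln1 were then at 0.355 and 0.53 (unadjusted p = 0.0428 and 0.0324). Without combination mouse 2, Lrp1 was at 0.55 (unadjusted p = 0.139). For the combination against vehicle, Slc39a8, a metal importer, was at -0.47 ± 0.20, and at -0.26 without vehicle mouse 2. The interaction was -0.99 ± 0.44 for Hmox1, or -0.58 without GGOH mouse 2. For Mcoln1 the interaction was 0.73 ± 0.34, or 0.515 without combination mouse 3 (unadjusted p = 0.124). With all mice kept, none of these had an adjusted p under 0.348 in edgeR.

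Likeness across mice was measured for Hamp against every other gene. Among 12788 genes, the 5 with the highest Pearson r with Hamp in log2 CPM over the 20 livers were Clec2h (0.781), Atoh8 (0.781), Wdfy1 (0.766), Psen2 (0.732) and Gm12792 (0.716). Atoh8, a transcription factor induced by BMP and SMAD signalling, ranked second and was on the BMP list. These are the highest of many values and carry no test. Computed from deviations from the group means, r between Hamp and Atoh8 was also 0.781, and Spearman's rho was 0.791. The lowest liver was GGOH mouse 3 for Clec2h and Atoh8 and vehicle mouse 1 for Wdfy1, Psen2 and Gm12792. Those mice also had the lowest Hamp, and how far these r values rest on them was not tested.

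Atoh8 was low but counted in every liver. It was at 3.96, 10.7, 5.69, 7.26 and 8 CPM in combination mice and 7.72, 9.12, 6.75, 6.50 and 5.37 CPM in Rosuvastatin mice. It was at 7.71, 4.81, 3.54, 4.51 and 6.30 CPM in GGOH mice and 4.82, 4.02, 8.99, 5.45 and 6.59 CPM in vehicle mice. The highest Atoh8 of the combination, Rosuvastatin, GGOH and vehicle mice was in mice 2, 2, 1 and 3, and the first 3 of these also had the highest Hamp of their group. Other genes of the list followed Hamp less closely: r was 0.536 for Id3 (rank 147), 0.428 for Id2, 0.332 for Smad7 and 0.194 for Id1. The ligand Bmp6, which iron induces in liver endothelium, was at -0.376. From deviations from the group means, r was 0.451 for Id1, 0.269 for Smad7 and -0.48 for Bmp6. The permutation p-values were 0.0453, 0.251 and 0.0313, unadjusted. Without vehicle mouse 1 and combination mice 2 and 3, r of the log2 CPM was 0.085, 0.309 and -0.339 in that order.

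**Figure D4:**
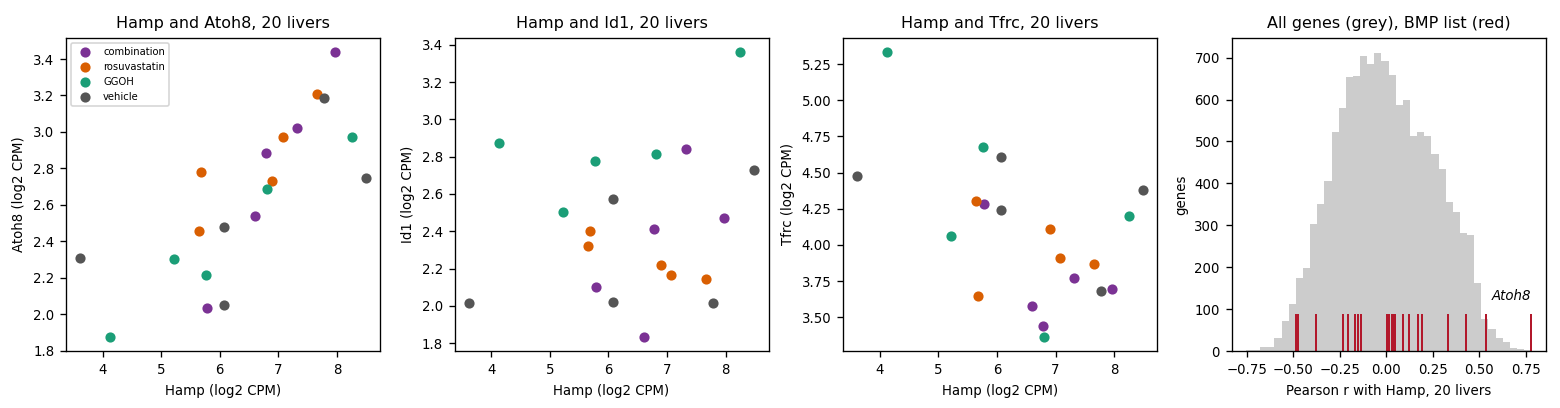
Hamp against Atoh8, Id1 and Tfrc in log2 CPM, 1 point per liver coloured by group, and the distribution of Pearson r with Hamp over all genes tested (grey bars), with the BMP and SMAD list as red ticks. Atoh8 lies at 0.781, near the upper end, while Id1 lies at 0.194.

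Of 18 relations examined between the iron handling genes and set regulators over the 20 livers, none passed after Benjamini-Hochberg adjustment over the 18. The highest was between the ferritin chains, with a Pearson r of 0.591 (permutation p = 0.0058, adjusted 0.104) and a Spearman rho of 0.571 (p = 0.00954, adjusted 0.172). Without the 2 mice farthest from the median of Fth1, r was 0.436 (permutation p = 0.0698). Hamp and Tfrc had an r of -0.514 (p = 0.0205, adjusted 0.125) and a rho of -0.388 (p = 0.0931, adjusted 0.335). Without GGOH mouse 3 and vehicle mouse 1, the 2 farthest from the median of Hamp, r was -0.239 (permutation p = 0.337). Thus r was weaker without that pair, and neither of them was left out alone. From deviations from the group means r was -0.476 (permutation p = 0.0342). With GGOH mouse 3 kept and combination mice 2 and 3 and vehicle mouse 1 omitted, r was -0.482 (permutation p = 0.0508). Within all 4 groups the sign was the same.

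Hfe and Tfr2, whose proteins are thought to act together in iron sensing, had an r of -0.513 (permutation p = 0.0208, adjusted 0.125) and a rho of -0.409 (p = 0.0748, adjusted 0.335). Without the 2 mice farthest from the median of Hfe r was -0.556, but without vehicle mouse 1 and combination mice 2 and 3 it was -0.195. Slc40a1 and Fth1, which share the hairpin type shown above, had an r of 0.474 (permutation p = 0.0334, adjusted 0.150) and a rho of 0.398 (p = 0.0819, adjusted 0.335), and r was 0.158 without 2 mice. Hamp and Hamp2, despite their like promoters, had an r of 0.313 (permutation p = 0.177, adjusted 0.319) and a rho of 0.254 (p = 0.277, adjusted 0.502). Hamp had an r of 0.0978 with the mitochondrial share of the library (permutation p = 0.684, adjusted 0.769).

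The genes most like Tfrc over the 20 livers were Bche (Pearson r = 0.712), Shmt1 (0.712), Dmd (0.71), Dek (0.704) and Abraxas2 (0.702), none of them on an iron list. Measured from the group means, these values lay between 0.592 and 0.660. Like those of Hamp, they are the highest of 12788 and carry no test.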

How the data were processed

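Livers of 20 mice were profiled by poly(A) RNA sequencing (TruSeq libraries, paired 100-base reads, NovaSeq), per the labels' protocols. The authors deposited kallisto estimated counts per gene, already whole numbers, and TPM values per gene, scaled by the authors for length and depth; kallisto 0.44.0, bcl2fastq 2.19 and DESeq2 (no version) with GRCm38 and mm10 are named in the submitters' processing notes. Strandedness and the transcript set are not given in the sources used here. Of 34934 entries, 1 had no name; it took 0.00801 to 0.0157% of the counts of a library and was left out.

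Genes were tested with edgeR 4.0.16 (R 4.3.3): TMM, the default low-count filter by group, a group-means model over all 20 libraries, the quasi-likelihood F test, and Benjamini-Hochberg adjustment over 12789 genes at 0.05. SEs were derived from the F statistic and intervals are at 95%. The interaction is combination minus Rosuvastatin minus GGOH plus vehicle. Log2 CPM used a prior count of 2. Exact tests enumerated 252 assignments, and correlations used 100000 permutations. Alternatives were DESeq2 1.42.0, RLE factors, other filters, limma 3.58.1 on log2(TPM + 1) and log2(TPM + 0.1), a replicate block, fewer groups and left-out mice. The test was checked on simulated data.

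The 10 genes, the lists and the relations were chosen with earlier results of these data known. Named in the text were the 10 genes, the listed iron genes with the 2 smallest p-values per comparison (shown mainly where unadjusted p was under 0.05), and the 5 genes most like Hamp and Tfrc. Id3, Smad6, Smad7 and Bmp2, where the rule does not reach them, were named after their values were seen. Marker lists were used to describe the tissue.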

Additional observations from a re-analysis of the deposited data

Results flagged for a closer look

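In 40 groups of 5 mice (10 genes in 4 groups), 2 held a mouse far from the other 4 by Dixon's gap test, and chance alone flags about 2 of 40. Ftl1 was at 4010 CPM in Rosuvastatin mouse 5, above the 2840 to 3119 CPM of the other Rosuvastatin mice. Slc40a1 was at 106 CPM in GGOH mouse 4, below the 152 to 170.1 CPM of the other GGOH mice. Kupffer cell markers, which belong to the liver macrophages that express ferroportin, summed to 113 TPM in that mouse and to 57.2 to 255 TPM in the other GGOH mice; their part in the value was not tested.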

How the results depend on the processing

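No setting brought an iron handling gene past the threshold: over 1052 recomputations of 35 fold changes the smallest adjusted p was 0.18. The counts of genes called, 0 in each comparison with edgeR, were 2 (Nfe2 and Prg4) for Rosuvastatin against vehicle, 1 for the combination against Rosuvastatin and 5 for the combination against vehicle with DESeq2. The count was 1 for the combination against Rosuvastatin without a low-count filter and with limma on log2(TPM + 1). It was 1 for the combination against vehicle without a filter and with limma on log2(TPM + 1), with or without filter, and log2(TPM + 0.1). With each mouse left out it ran from 0 to 1 in both comparisons; the cause was not tested. With the replicate block it stayed at 0 in all 6 comparisons, Tfrc in the combination against GGOH was -0.69 on the log2 scale, and no call of an iron handling gene changed. Same-numbered mice had deviations correlated between -0.465 and 0.507, so the numbers were not treated as pairs.

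Log2 TPM, which takes no TMM factor and averages logs, turned directions. With pseudocounts of 1 and 0.1, the log2 fold change for Rosuvastatin against vehicle was 0.41 and 0.414 for Hamp, 0.0787 and 0.082 for Tfr2, and 0.0726 and 0.073 for Cp. For the combination against vehicle it was 0.63 and 0.634 for Hamp, 0.0785 and 0.0812 for Hamp2, and 0.0622 and 0.0651 for Tfr2. Trf in the combination against GGOH was -0.0849 with either. Without a filter the values were those of pseudocount 1. The median of all genes for Rosuvastatin against vehicle was 0.11 in log2(TPM + 1), against -0.02 in the edgeR fit. Without vehicle mouse 1 and combination mice 2 and 3, Hamp in the combination against Rosuvastatin was -0.0523, the interaction of Tfr2 was -0.00922, and r was 0.354 for Hamp with Tfr2 and -0.23 for Hamp with the mitochondrial share. That last r was -0.00575 from group means. Without the 2 farthest mice, r was -0.114 for Hamp with Socs3 and 0.326 for Hamp with Tfr2.

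With 1 mouse left out, Hamp ran from -0.711 to 0.299 for Rosuvastatin, from -1.39 to 0.18 for GGOH and from -0.461 to 0.553 for the combination, each against vehicle, with the upper value without vehicle mouse 5. Against Rosuvastatin the combination ran from -0.0795 to 0.601 for Hamp and from -0.00476 to 1.09 for Hamp2. Hamp2 ran from -0.102 to 0.624 for the combination against GGOH, and Tfrc from -0.165 to 0.349 for GGOH against vehicle.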
